A study of Bos taurus with 53 samples.

Results

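The genes described here are the nuclear genes of oxidative phosphorylation (OXPHOS). They were taken by symbol, as the rows named NDUFA, NDUFB, NDUFC, NDUFS or NDUFV with a number, SDHA to SDHD, UQCR, CYC1, COX4 to COX8 and ATP5 that do not lie on the mitochondrial chromosome. The rule found 62 of the 24596 features of the table: 27 genes of complex I, 3 of complex II, 7 of complex III, 13 of complex IV and 10 of complex V. A further 2, ATP5S and ATP5SL, carry an ATP5 symbol but are not subunits of the ATP synthase. NDUFA4, once assigned to complex I, is counted with complex IV, and so is its paralog NDUFA4L2. SDHD, the remaining subunit of complex II, is not analysed here.

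Oxidative phosphorylation makes most of the ATP of respiring cells in the inner mitochondrial membrane. Complex I takes electrons from NADH and complex II takes them from succinate. Both pass them through coenzyme Q to complex III, cytochrome c and complex IV, which reduces oxygen, and the proton gradient that is built on the way drives the ATP synthase, complex V. Most subunits are encoded in the nucleus, while mitochondrial DNA encodes core subunits of complexes I, III, IV and V. Around elongation the ruminant conceptus consists of an embryonic disc, which gives rise to the embryo proper, and extraembryonic tissue, mainly trophectoderm lined by hypoblast.

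The embryos were bovine (Bos taurus). Oocytes were matured in vitro in 1 of 3 media. CONTROL held neither fatty acids nor solvent, BASAL held 23 µM palmitic, 28 µM stearic and 21 µM oleic acid in 0.45% ethanol, and HIGH PA held 150 µM palmitic acid with the same stearic acid, oleic acid and ethanol, so that CONTROL differs from the other media in the solvent as well. After in vitro fertilisation and culture, blastocysts were transferred to recipient cows, and conceptuses were flushed on day 14, scored as ovoid, tubular or spherical and dissected into embryonic disc (ED) and extraembryonic tissue (EX). The 53 libraries comprise 12 BASAL, 8 HIGH PA and 3 CONTROL discs, 14 BASAL, 10 HIGH PA and 4 CONTROL extraembryonic samples, and 2 undissected HIGH PA embryos that entered no comparison. They came from 30 embryos, 23 of them with both tissues, and 7 cows. All CONTROL embryos came from cow 813, and all 3 CONTROL discs were of tubular male embryos. Female embryos gave 5 BASAL and 1 HIGH PA disc, and 5 BASAL, 2 HIGH PA and 1 CONTROL extraembryonic sample. The sex of 1 HIGH PA extraembryonic sample was not determined, and all other samples were male. Several embryos shared a cow, so p-values measure the spread between embryos and not between independent flushes.

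Levels are in CPM, exon reads per 1000000 reads of the library after TMM scaling, which corrects each library by a factor that brings most genes to a like level. They are given for the 22 ED and 27 EX libraries over 10000 exon reads, which held 119116 to 6167850 reads in ED and 340016 to 19533821 in EX. The fits by medium and shape also keep 1 BASAL ED library of 6814 reads and 1 BASAL EX library of 9810 reads, from different embryos, and the tissue fit keeps the first, whose embryo has an EX library of 9772183 reads. ED and EX RNA was extracted with different kits, and the lanes in the column names were mostly 1 and 2 for ED and 3, 4 and 8 for EX, so that kit and tissue cannot be told apart. On 7 EX libraries the column name reads EX_2 in place of EX, a mark that the labels leave unexplained. The marked libraries came from 5 ovoid, 1 spherical and 1 tubular embryo and are shown apart wherever they bear on a value. Discs held epiblast transcripts (summed level of 6 markers 64.3 to 443 CPM, against 12.5 to 105 in EX), but also trophectoderm transcripts (11 markers, 6393 to 20115 in ED and 17666 to 42209 in EX), and hypoblast transcripts (10 markers, 558 to 2563 in ED and 311 to 1473 in EX). The discs also carried streak and mesoderm transcripts (7 markers, 1.66 to 294 against 0 to 17.3). Maternal blood and immune markers summed to at most 36.3 in ED and 7.23 in EX with haemoglobin HBB at 0, and endometrial markers to at most 18.98 in ED and 83.3 in EX with PAEP at 0. In such bulk samples fewer cells of a type and less RNA per cell cannot be told apart.

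OXPHOS transcripts were abundant in both tissues, and the ATP synthase led. Summed over the 62 genes the level was 10649 ± 1087 in ED (SD, n = 22) and 12984 ± 2089 in EX (SD, n = 27). Complex V stood at 4802 ± 511 in ED and 5882 ± 795 in EX, and complex I at 2665 ± 233 and 3117 ± 662 (SD, same n). Complex III stood at 1406 ± 169 and 1754 ± 310, complex IV at 1191 ± 191 and 1595 ± 352, and complex II, with 3 genes in the table, at 556 ± 57.0 and 609 ± 84.0. The ranges of ED and EX overlap in each complex.

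Genes were compared with each other per kilobase of exon. The highest in EX was ATP5G3, 1 of 3 genes for the proton-carrying c subunit of the ATP synthase, with a median of 1013 CPM per kilobase, followed by ATP5A1 (915) and ATP5B (888), the alpha and beta subunits of its catalytic head. The highest members of the other complexes were COX5A of complex IV at 431, UQCRB of complex III at 402, NDUFB8 of complex I at 276 and SDHC, a membrane anchor of complex II, at 158. At the low end stood NDUFS1, the largest iron-sulphur subunit of complex I, at 59.3, SDHA, the flavoprotein of complex II, at 119, UQCRC2, a core protein of complex III, at 188, and ATP5G1 of complex V at 294. In complex IV the lowest tested row was COX6B1 at 1.22. That row lies on another chromosome than the RefSeq gene of its name and 20.1% of its reads were uniquely placed, so 1.22 may not be the level of the subunit gene.

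**Figure D1:**
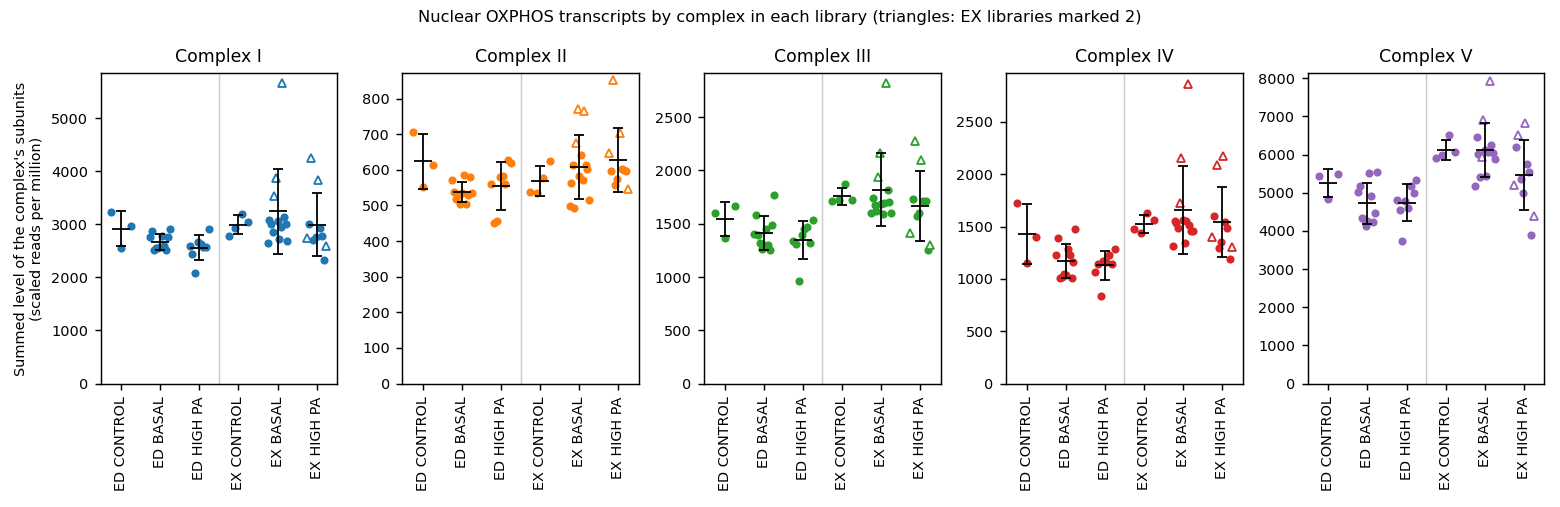
Summed level of the subunits of each complex in every library (CPM, that is scaled reads, vertical axis), by tissue and medium along the horizontal axis. Points are libraries, triangles are EX libraries with the EX_2 mark, and bars are means with SD. EX lies above ED in complex V (5882 against 4802 on average), and the highest EX points are marked libraries.

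EX was compared with ED of the same embryo to ask how the tissues differ in this pathway. Most OXPHOS genes rose in EX: all 7 genes of complex III, 8 of 10 of complex V, 7 of 9 tested of complex IV, 16 of 27 of complex I and 1 of 3 of complex II. The median log2 differences were 0.361, 0.388, 0.39, 0.322 and 0.111 in the same order. Whether the complexes differ in their change was not tested. Of the 58 genes that passed the filter on low counts, 39 were higher and 1 lower at an adjusted p under 0.05 (edgeR quasi-likelihood test, embryo as a block, 23 embryos, Benjamini-Hochberg adjustment over all genes). Among all 11921 genes tested 24.5% were higher and 30.8% lower. The median log2 difference was 0.333 over the 58 genes, a fold of 1.26, and -0.011 over all genes. In the same fit all 6 epiblast, 6 streak and mesoderm and 9 hypoblast markers tested were lower in EX and 7 of 11 trophectoderm markers were higher, and their part in the OXPHOS difference was not tested. The 4 genes that did not pass the filter, COX4I2, COX6A2, COX7A1 and NDUFA4L2, are all listed with complex IV.

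The absolute size of this shift rests on the scaling. With library totals and no scaling factor the median of all genes moved to -0.247, with 9.81% of genes higher and 43.5% lower, and that of the OXPHOS genes to 0.086, with 16 higher and 7 lower. The OXPHOS median stood 0.344 above that of all genes with TMM and 0.333 above it with library totals. Under library totals the medians of complexes I, III, IV and V stayed above 0 (0.083, 0.11, 0.146 and 0.128) and that of complex II fell below it (-0.136). The counts of genes higher fell to 6 of 27 in complex I, 2 of 7 in III, 3 of 9 in IV, 5 of 10 in V and 0 of 3 in II. Lower were 4 genes of complex I, 1 of II, 1 of IV and 1 of the 2 other genes. Without the scaling factor complex I averaged 2893 CPM in ED and 2888 in EX, so its higher sum in EX rests on the scaling. Among the genes lower in EX on that scale were COX6B2 (-0.79), ATP5S (-0.47), NDUFB11 (-0.40), NDUFA10, NDUFS4 and SDHA (-0.21), and the highest was ATP5G1 (0.58). The differences below are on the TMM scale and so relative to the bulk of genes. NDUFA10, NDUFB5, NDUFS4, NDUFS8, NDUFV2, COX6C, CYC1, UQCRC1 and the ATP synthase subunits outside the naming rule are named because their complex, role or call stood out once values were seen.

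In complex V, the ATP synthase, the median difference was 0.388 and 0 genes fell. ATP5G1 (chromosome 19, 38253560 to 38255681, UMD3.1) had 38.8, 109 and 165 CPM as the lowest, median and highest of the ED libraries and 101, 162 and 427 in EX. The ranges overlap, but within embryos ATP5G1 was higher in EX in 18 of 22, by 0.82 ± 0.14 on the log2 scale (SE; adjusted p = 1.522e-05, edgeR). ATP5C1, the gamma subunit that turns inside the catalytic head, ran from 240 to 409 (median 328) in ED and from 322 to 893 (median 439.7) in EX. It was higher in EX in 21 of 22 embryos, by 0.51 ± 0.09 (SE; adjusted p = 1.372e-05, edgeR).

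The 3 genes ATP5G1, ATP5G2 and ATP5G3 encode the same mature c subunit with different import sequences. ATP5G3, the most abundant, ran from 350 to 700.3 (median 532) in ED and from 438 to 939 (median 702) in EX and rose by 0.47 ± 0.09 (SE; adjusted p = 4.436e-05, edgeR), in 20 of 22 embryos. ATP5G2 had medians of 215 in ED and 221 in EX, was higher in EX in 12 of 22 embryos and did not pass the test (0.08 ± 0.08, SE; adjusted p = 0.42, edgeR). Whether the 3 genes differ in their change was not tested. The other genes that rose were ATP5D, ATP5B, ATP5F1, ATP5J2 and ATP5A1, by 0.26 to 0.58. ATP5J, at 0.17, did not pass the test.

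In complex III the differences ran from 0.22 for UQCRC1 to 0.67 for UQCRB. UQCRB, which helps to form the quinone-binding region (chromosome 14, 70329413 to 70334124), had a lowest, median and highest level of 77.6, 128 and 175 in ED and of 91.6, 192 and 371 in EX. It was higher in EX in 20 of 22 embryos (0.67 ± 0.10, SE; adjusted p = 2.024e-06, edgeR). UQCRQ, a small structural subunit, rose by 0.50 ± 0.10 and UQCRC2 by 0.36 ± 0.09 (SE; adjusted p = 8.962e-05 and 0.000816, edgeR). The subunits that transfer electrons, cytochrome c1 (CYC1) and the Rieske iron-sulphur protein (UQCRFS1), rose by 0.34 ± 0.08 and 0.33 ± 0.08 (SE).

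In complex IV the tissue forms of 1 subunit, COX7A, stood apart. COX7A2L, a paralog of COX7A2 that takes part in joining complexes III and IV into supercomplexes (chromosome 11, 24824244 to 24836596), ran from 54.8 to 289 (median 172) in ED and from 198 to 375 (median 291) in EX. It was higher in EX in 20 of 22 embryos, by 0.75 ± 0.11 (SE; adjusted p = 1.015e-06, edgeR). COX7A2, the widely expressed form, ran from 75.7 to 195 (median 134) in ED and from 128 to 427 (median 196) in EX and rose by 0.67 ± 0.11 (SE; adjusted p = 1.065e-05, edgeR). COX7A1, the heart and muscle form (chromosome 18, 46994990 to 46996544), went the other way by reads: 17 of 22 ED libraries held 61 reads of it, at 0 to 2.79 CPM (median 0.998), while 2 of 27 EX libraries held 3 reads. The EX libraries were the deeper ones.

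COX4I1, the ubiquitous form of the largest nuclear subunit, ran from 201 to 460.3 (median 281) in ED and from 272 to 729 (median 329) in EX and rose by 0.34 ± 0.09 (SE; adjusted p = 0.002422, edgeR). Its counterpart COX4I2, the lung-type form, had 0 reads in the 22 ED and 27 EX libraries, which allows up to 0.0566 and 0.0144 unscaled CPM over the libraries of each tissue (3 reads, counting error only). COX6A2, the heart and muscle form of COX6A, had 1 read in ED and 4 in EX. COX6B2, the testis form of COX6B, was the 1 gene that fell: it ran from 0 to 8.99 (median 3.07) in ED and from 0.257 to 7.90 (median 1.96) in EX and was lower in EX in 16 of 22 embryos (-0.54 ± 0.22, SE; adjusted p = 0.034, edgeR). COX6B2 had 188 reads in ED and 429 in EX, and its call was lost in 10 alternative settings and kept in 12. NDUFA4 rose by 0.39 ± 0.10, whereas NDUFA4L2, its hypoxia-induced paralog (chromosome 5, 56537020 to 56539323), had 80 reads in 15 of 22 ED and 14 reads in 8 of 27 EX libraries. With a filter on low counts that follows the design matrix, added after the data were seen, COX7A1 and NDUFA4L2 entered the test and were lower in EX (adjusted p = 3.722e-10 and 2.163e-05, edgeR).

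Among the remaining genes of complex IV, COX5A rose by 0.45 ± 0.09, COX8A by 0.43 ± 0.12 and COX6C by 0.25 ± 0.10 (SE). COX5A ran from 148 to 393 (median 251) in ED and from 97.2 to 494 (median 312) in EX. The rows named COX6B1 and COX8A lie on chromosomes 5 and 20 of UMD3.1, other chromosomes than the RefSeq genes of those names in ARS-UCD2.0, and 20.1% of the reads of COX6B1 were uniquely placed. The exon length of each row, 479 and 448 nucleotides, equals the span of its locus, so neither holds an intron. Which copy these 2 rows measure is therefore uncertain, and COX6B1 (-0.18 ± 0.53, SE) did not pass the test. Uniquely placed reads were also a limited share in NDUFA12 (46.5%), COX7A2 (52.0%), UQCRC2 (65.2%), SDHC (73.3%) and COX6C (77.7%). Their levels and differences here count all exon reads, so part of those reads may stem from other loci.

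In complex I 16 of 27 genes rose, 0 fell, and the median difference was 0.322. NDUFA1, an X-linked accessory subunit of the membrane arm (chromosome X, 4068879 to 4072037), had a lowest, median and highest level of 28.8, 43.2 and 84.6 in ED and of 26.8, 61.7 and 183 in EX. It was higher in EX in 20 of 22 embryos, by 0.63 ± 0.10 (SE; adjusted p = 7.107e-06, edgeR). NDUFV1, which binds NADH and passes its electrons into the complex, ran from 103 to 237 (median 151) in ED and from 137 to 311 (median 198) in EX, and rose by 0.41 ± 0.09 (SE; adjusted p = 0.0002537, edgeR). NDUFC1, a small accessory subunit, rose by 0.47 ± 0.10 (SE; adjusted p = 0.0003065, edgeR). Among the core subunits, NDUFV1, NDUFV2, NDUFS3 and NDUFS7 rose, while NDUFS1 and NDUFS8 did not pass the test (0.14 and 0.09). NDUFB11, NDUFA10 and NDUFS4 had negative differences (-0.16, -0.15 and -0.04) that did not pass it either.

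In complex II only SDHC passed the test. SDHC (chromosome 3, 8195437 to 8226068) had a lowest, median and highest level of 107, 162 and 215 in ED and of 147, 205 and 299 in EX and was higher in EX in 20 of 22 embryos (0.37 ± 0.08, SE; adjusted p = 0.0003829, edgeR). SDHA (chromosome 20, 71940742 to 71964107), which oxidises succinate, had medians of 269 in ED and 267 in EX and differed by 0.04 ± 0.06 (SE; adjusted p = 0.58, edgeR). SDHB (chromosome 2, 136125303 to 136154362), the iron-sulphur subunit, had medians of 128 in both tissues and differed by 0.11 ± 0.09 (SE; adjusted p = 0.32, edgeR). SDHA and SDHB were higher in EX in 13 and 12 of 22 embryos. ATP5S and ATP5SL, the genes that are not subunits, stood at -0.24 and 0.05 and did not pass the test.

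**Figure D2:**
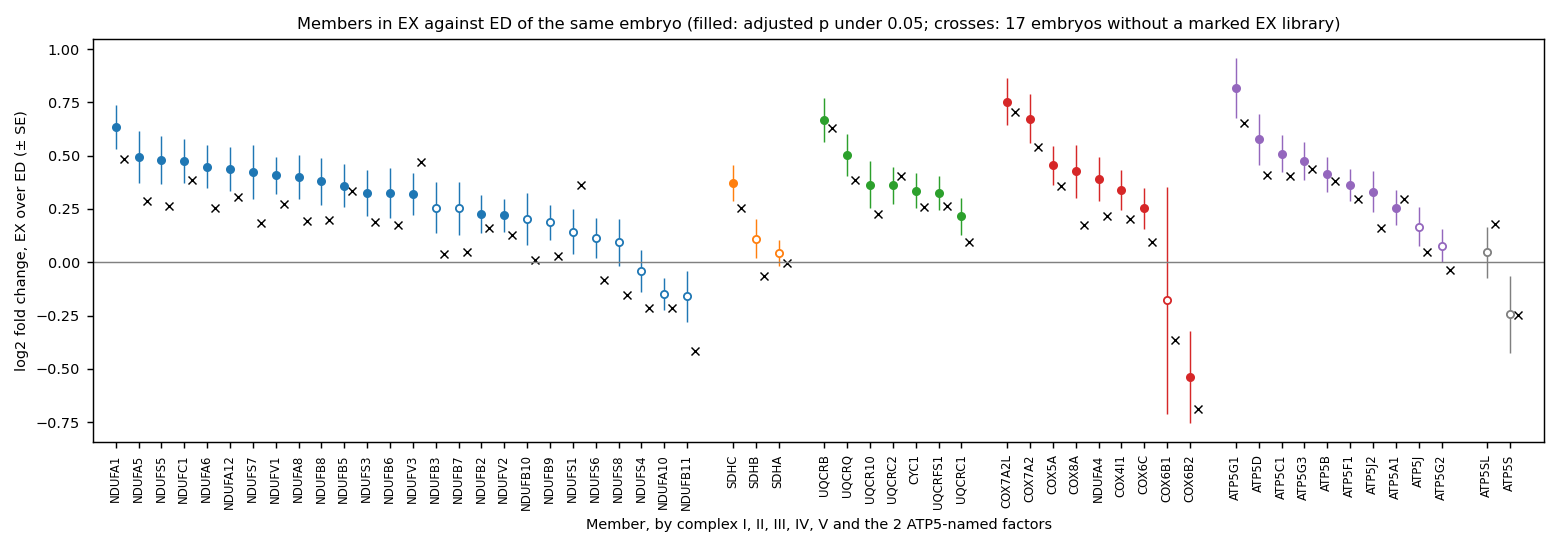
Log2 difference of EX from ED of the same embryo (vertical axis, with bars of 1 SE) for the tested genes, 1 of them left out, ordered within complexes I, II, III, IV and V and the 2 other genes along the horizontal axis. Filled points have an adjusted p under 0.05, and crosses give the fit of 17 embryos without a marked EX library. Complex III lies wholly above 0. COX6B2 is the 1 filled point below 0, a call lost in 10 alternative settings and kept in 12. Under library totals the median of complex II turns to -0.136.

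The shift differed in size between embryos. The median log2 ratio of EX to ED over the 58 genes, 1 value per embryo, ran from -0.082 to 1.256 with a median of 0.247 and was above 0 in 18 of 22 embryos. By summed level, complex V was higher in EX in 22 of 22 embryos, complex III in 21, complex IV in 20, complex I in 18 and complex II in 16. In unscaled CPM the median over the 58 genes was above 0 in 13 of 22 embryos, and in 0 of the 3 CONTROL embryos. The EX library of 6 of the embryos carried the EX_2 mark, and their medians ran from 0.057 to 1.256 (median 0.650), against -0.082 to 0.697 (median 0.183) in the 16 others. The embryo at 1.256 had an EX library with the TMM factor 0.6287 and 20.9% of reads from the mitochondrial chromosome. In unscaled CPM it stood at 0.41, and the highest was another marked embryo at 0.502. The same library gave the EX maxima of ATP5C1, ATP5G1 and NDUFA1.

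Without the marked embryos the difference was smaller and complex I was mixed. Of 59 genes tested in the 17 remaining embryos 30 were higher and 5 lower, with a median of 0.197 (29.7% of all genes were higher and 32.2% lower). Complex III had 6 of 7 genes higher and complex V 7 of 10, with medians of 0.262 and 0.338. Complex IV had 5 higher, led by COX7A2L (0.71), and COX6B2 (-0.69) and NDUFA4L2 (-3.98) lower. In complex I 11 of 27 genes were higher, led by NDUFA1 (0.49) and NDUFV3 (0.47), and NDUFB11 (-0.41), NDUFA10 (-0.21) and NDUFS4 (-0.21) were lower. NDUFB11, an X-linked subunit of the membrane arm (90791401 to 90793658), was lower in EX in 15 of 16 unmarked embryos and higher in 5 of 6 marked ones. In complex II SDHC was higher (0.26), and SDHA and SDHB stood at 0.00 and -0.06.

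By medium, 26 of 56 genes were higher and 0 lower in BASAL embryos fitted alone (14.2% of all genes higher, 17.9% lower), and 10 of 57 higher and 0 lower in HIGH PA embryos (8.04% and 12.6%). In the 3 CONTROL embryos 5 of 57 were higher and 2 lower (11.7% and 14.8%). The medians were 0.333, 0.304 and 0.008. In CONTROL embryos UQCRB (0.71), COX7A2L (0.63), NDUFS1 (0.60), UQCRC2 (0.52) and NDUFB5 (0.52) were higher and NDUFB11 (-0.79) and NDUFS8 (-0.62) lower. Summed complex II was lower in EX in all 3 CONTROL embryos, while complexes III and V were higher in all 3. None of these embryos had a marked library, and whether CONTROL differs from the other media in the tissue difference was not tested.

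**Figure D3:**
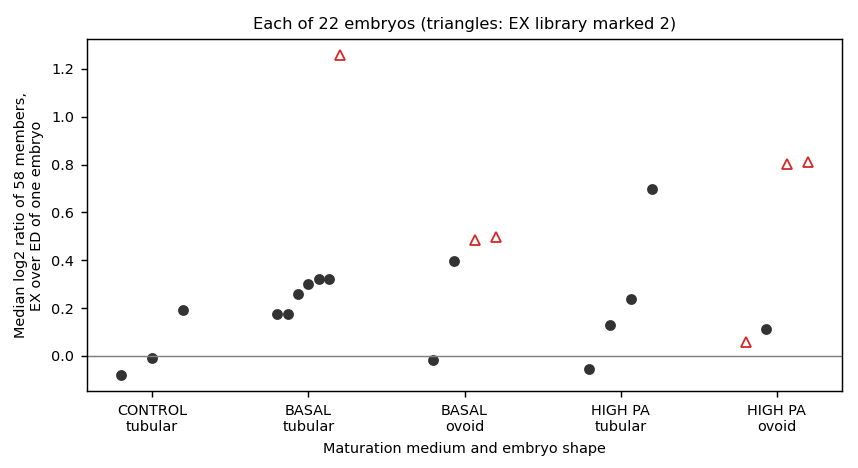
Median log2 ratio of EX to ED over the 58 tested genes (vertical axis), with 1 point for each of 22 embryos, by medium and shape along the horizontal axis. Triangles are embryos whose EX library carries the EX_2 mark. The marked embryos include the highest values, up to 1.256, and 2 of the 3 CONTROL embryos lie just below 0. In unscaled CPM the embryo at 1.256 stood at 0.41.

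The marked EX libraries were compared with the other EX libraries, with shape, medium and sex as further terms, a comparison added after the data were seen. They held more OXPHOS transcript: 44 of 58 genes were higher and 3 lower, with a median difference of 0.663, where 22.4% of all 10969 genes were higher and 21.8% lower and the median of all genes was 0.036. The summed level was 14726 ± 3288 CPM in the 7 marked and 12374 ± 1022 in the 20 unmarked libraries (SD). The discs of marked embryos were at 10602 ± 896 (SD, n = 6) and the other discs at 10667 ± 1177 (SD, n = 16). In unscaled CPM the EX means were 12625 for marked and 11886 for unmarked libraries. The marked library of the tubular embryo, the highest at 20055, had 12609 unscaled. With library totals the median of all genes moved to -0.258 (5.91% higher, 29.1% lower) and that of the OXPHOS genes to 0.323, with 27 higher and 3 lower, and the medians of complexes I to V stayed above 0.

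Complexes I and IV differed most by median between marked and unmarked libraries. Of complex I 22 of 27 genes were higher (median 0.781), of complex IV 7 of 9 (0.824), of complex III 6 of 7 (0.459), of complex V 7 of 10 (0.404) and of complex II 2 of 3 (0.322). NDUFS5, a small accessory subunit of complex I, had a lowest, median and highest level of 66.1, 126 and 276 in marked and of 55.5, 76.3 and 100.0 in unmarked libraries (1.04 ± 0.16, SE; adjusted p = 0.0001338, edgeR). NDUFB11 had 75.5, 83.9 and 139 in marked and 40.6, 51.9 and 75.7 in unmarked libraries, so that the groups meet only at their ends (0.78 ± 0.12, SE; adjusted p = 9.188e-05, edgeR). The unmarked range also splits by sex. In NDUFB11, as in NDUFA1, which is X-linked too, all unmarked libraries of female embryos lay above those of male embryos. NDUFA12 had 79.0, 137 and 255 against 55.5, 95.4 and 107 (0.89 ± 0.13, SE; adjusted p = 8.609e-05, edgeR). NDUFB6 and NDUFA4 were higher by 0.90 and 0.82. The genes that fell were NDUFV3 (-0.71), NDUFS1 (-0.68) and ATP5SL (-0.45). NDUFS1 ran from 87.4 to 195 (median 121) in marked and from 119 to 312 (median 220.0) in unmarked libraries.

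This difference moved with gene length. The exon lengths of the 58 genes run from 379 to 3338 nucleotides, the longest being NDUFS1, and the Spearman correlation of length with the difference across these genes was -0.678, a description over genes that share their libraries. With all nuclear genes split by length into 4 equal bins, their median difference was 0.423 in the shortest bin (156 to 1323 nucleotides), 0.175 and -0.003 in the middle bins and -0.32 in the longest. The shortest bin held 48 of the 58 OXPHOS genes, whose median was 0.75. In EX against ED the medians of such bins ran from 0.114 to -0.146 over all genes, and the 48 OXPHOS genes of the shortest stood at 0.349. With a trend on gene length as an offset 16 genes were higher and 3 lower, with a median of 0.286 (18.1% and 17% of all genes). Marked libraries also had a larger share of exon reads from the mitochondrial chromosome, 4.15% to 20.9% (median 10.7%) against 2.69% to 6.68% (median 4.17%), and more intron reads (median 8.55% against 7.05%). Without cow 13, 8 genes were higher and 2 lower (2.52% and 8.16% of all genes), and among ovoid embryos alone 0 of 11005 genes were called by edgeR, with 1599 at an unadjusted p under 0.05. The part of RNA quality or of the mark itself in this difference was not tested.

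**Figure D4:**
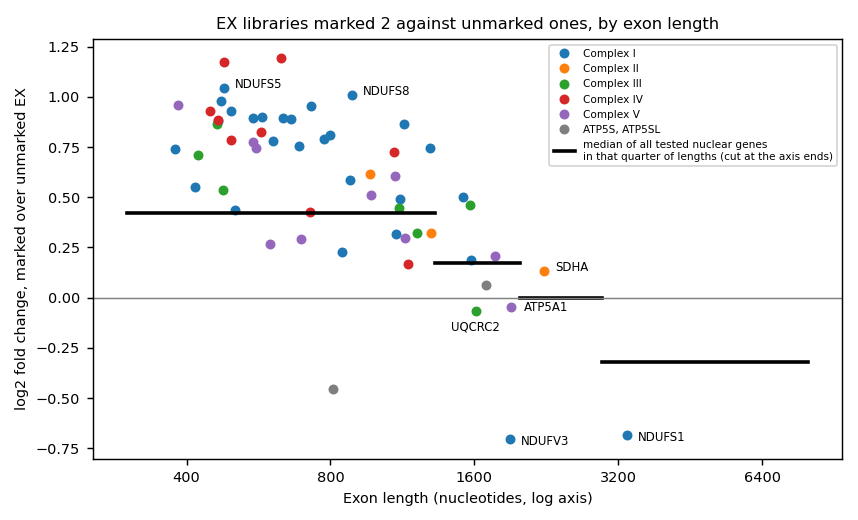
Log2 difference between marked and unmarked EX libraries (vertical axis) against exon length in nucleotides (log axis), with 1 point per tested gene coloured by complex and black bars for the median of all tested nuclear genes in each of 4 bins of length. Short genes lie high and the longest, NDUFS1, lies at -0.68; the bars fall from 0.423 to -0.32.

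The media of oocyte maturation were compared within each tissue to ask whether fatty acids during maturation leave a trace in the embryo. No OXPHOS gene passed the test in either tissue. In the discs HIGH PA against BASAL, BASAL against CONTROL and HIGH PA against CONTROL called 0 of 58 genes each and 0% of all 11040 genes (edgeR quasi-likelihood test, medium and sex as terms). In EX the same comparisons called 0 of 58 and 0% of all 10969 genes. At an unadjusted p under 0.05 there were 0, 2 and 4 OXPHOS genes in the discs, in the order above, among 1004, 379 and 465 of all genes. In EX there were 0, 0 and 2 among 531, 372 and 1057. All 8 were lower in the first-named medium. DESeq2 called 0 of the 58 in all 6 comparisons. A p that misses the threshold does not show that levels were equal.

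In the discs CONTROL stood highest on average. The summed level was 11810 ± 1168 in CONTROL (SD, n = 3), 10538 ± 963 in BASAL (SD, n = 11) and 10366 ± 1068 in HIGH PA (SD, n = 8), and the ranges overlap. The median difference from CONTROL was -0.181 for BASAL and -0.226 for HIGH PA, with 13 and 7 of 58 genes above 0, and both comparisons share the same 3 CONTROL discs. These medians move with single CONTROL discs. Without CONTROL replicate 1 they were -0.0918 and -0.157, without replicate 2 they were -0.285 and -0.338, and without replicate 3 they were -0.147 and -0.122. NDUFS7, a core iron-sulphur subunit that hands electrons towards coenzyme Q, had the lowest p of the members in HIGH PA against CONTROL, and COX5A had it in BASAL against CONTROL. Its levels were 112, 68.7 and 84.1 in CONTROL replicates 1, 2 and 3, 45.4 to 74.6 (median 61.4) in BASAL and 32.8 to 75.0 (median 55.2) in HIGH PA. HIGH PA differed from CONTROL by -0.64 ± 0.23 and BASAL by -0.46 ± 0.24 (SE; adjusted p = 1.0 and 0.9997, edgeR).

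NDUFV1 was at 237, 153 and 215 in the CONTROL discs, 128 to 194 (median 149) in BASAL and 103 to 190.3 (median 140.4) in HIGH PA. NDUFS5 was at 102, 65.2 and 70.3 in CONTROL, 58.4 to 93.3 (median 68.5) in BASAL and 48.5 to 68.5 (median 55.6) in HIGH PA. COX5A was at 393, 253 and 315 in CONTROL, 195 to 280.0 (median 245) in BASAL and 148 to 356 (median 245) in HIGH PA. CONTROL replicate 1 was the highest of all discs in NDUFS7, NDUFV1, NDUFS5 and COX5A, and CONTROL replicate 2 lay within the range of BASAL in each of these genes, so that the groups overlap. Replicate 1 held 284848 exon reads, against 2573384 and 3259392 in replicates 2 and 3. Its levels of NDUFS7 and NDUFS5 rest on 35 and 32 reads. HIGH PA differed from CONTROL by -0.42 ± 0.19 in NDUFV1 and -0.44 ± 0.18 in NDUFS5 (SE; adjusted p = 1.0 each, edgeR), and BASAL from CONTROL by -0.46 ± 0.21 in COX5A (SE; adjusted p = 0.9997, edgeR).

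HIGH PA against BASAL differed less by median in the discs (-0.042, with 21 of 58 genes above 0, and 0.005 with library totals). COX8A ran from 16.6 to 27.8 (median 20.3) in BASAL and from 14.2 to 21.2 (median 18.3) in HIGH PA (-0.34 ± 0.17, SE; adjusted p = 0.55, edgeR). NDUFS5 differed by -0.27 ± 0.13 (SE; adjusted p = 0.55, edgeR). COX6B1 differed by 2.01 ± 0.99 (SE), with 1 HIGH PA disc at 27.4 CPM, from 4 reads, where the median of HIGH PA was 0.929.

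In EX the mark was unequally spread over media, on 3 of 13 BASAL, 4 of 10 HIGH PA and 0 of 4 CONTROL libraries. The summed level was 12997 ± 601 for CONTROL, 13485 ± 2285 for BASAL and 12326 ± 2162 for HIGH PA (SD). In unmarked libraries alone it was 12550 ± 726 in BASAL (SD, n = 10), 11665 ± 1352 in HIGH PA (SD, n = 6) and 12997 ± 601 in CONTROL (SD, n = 4), with overlapping ranges. The median difference of HIGH PA from BASAL was -0.059, and those of BASAL and HIGH PA from CONTROL were 0.139 and 0.095. With marked libraries left out these medians became 0.0185, -0.0499 and -0.0133, each of the opposite sign. The 2 HIGH PA libraries of spherical embryos had the lowest summed levels in EX, 9277 (unmarked and so among the 6 above) and 10154 (marked). They also held the fewest reads of these EX libraries, 340016 and 1068407, and the largest intron shares, 10.5% and 11.2%. No other EX library was on lane 1, so shape, depth and lane cannot be told apart here.

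SDHA ran from 213 to 314 (median 255) in BASAL, from 245 to 351 (median 279) in HIGH PA and from 236 to 255 (median 239) in CONTROL. HIGH PA differed by 0.15 ± 0.09 from BASAL and by 0.25 ± 0.12 from CONTROL (SE; adjusted p = 0.9997 and 0.52, edgeR). ATP5A1 ran from 1499 to 1990 (median 1799) in BASAL and from 1002 to 1910 (median 1538) in HIGH PA (-0.14 ± 0.09, SE; adjusted p = 0.9997, edgeR). NDUFS1 was at 223, 259.7, 312 and 194 in CONTROL replicates 1 to 4, 99.5 to 239.7 (median 219) in BASAL and 87.4 to 247 (median 174) in HIGH PA, which differed from CONTROL by -0.50 ± 0.22 (SE; adjusted p = 0.51, edgeR). UQCRC2 was at 353, 350.1, 414 and 289 in CONTROL replicates 1 to 4 and ran from 208 to 336 (median 275) in HIGH PA (-0.33 ± 0.15, SE; adjusted p = 0.51, edgeR). BASAL against CONTROL had COX8A (0.53), NDUFB11 (0.37) and UQCRC2 (-0.23) at the lowest p (adjusted p = 0.88 each, edgeR), and HIGH PA against BASAL had COX6B1 (-1.26).

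Ovoid and tubular embryos were compared to ask whether the pathway goes with the form of the conceptus. In EX 1 of 58 genes passed the test, SDHC, higher in ovoid embryos by 0.31 ± 0.09 (SE; adjusted p = 0.037, edgeR), where 6.94% of all genes were higher and 5.73% lower. SDHC ran from 194 to 299 (median 230.4) in 9 ovoid and from 164 to 242 (median 192) in 16 tubular libraries. The marked ovoid libraries were at 219, 246, 249, 265 and 299 and the unmarked ones at 194, 211, 223 and 230.4, so that the upper end of the ovoid range was marked. With the mark as a term the difference of SDHC was 0.16 ± 0.09 (SE; adjusted p = 0.41, edgeR), and with marked libraries left out 0.16 ± 0.10 (SE; adjusted p = 0.36, edgeR). Embryos share recipient cows, and with the cow as a block SDHC differed by 0.15 (adjusted p = 0.49, edgeR). The call was also lost with lane as a term (adjusted p = 0.13, edgeR), with the length offset (0.12) and with no filter on low counts (0.069).

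The median difference of the 58 genes between shapes in EX was 0.142, with 47 above 0, and -0.0865 with the mark as a term. With library totals 8 genes were higher and 0 lower in ovoid embryos (11.5% and 2.63% of all genes). Without cow 13, 24 were higher and 3 lower (19.5% and 17.8%), without cow 72, 13 were higher and 2 lower (14% and 13.5%), and without cow 07, 66 or 813 0 were called. In the discs 0 of 58 genes and 0% of all genes were called, and the median was 0.076. NDUFS3, a core subunit of complex I, ran from 61.3 to 104 (median 74.6) in 8 ovoid and from 52.5 to 105 (median 60.4) in 14 tubular discs (0.34 ± 0.13, SE; adjusted p = 0.60, edgeR), and UQCRQ (0.28) and ATP5S (-0.60) followed.

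**Figure D5:**
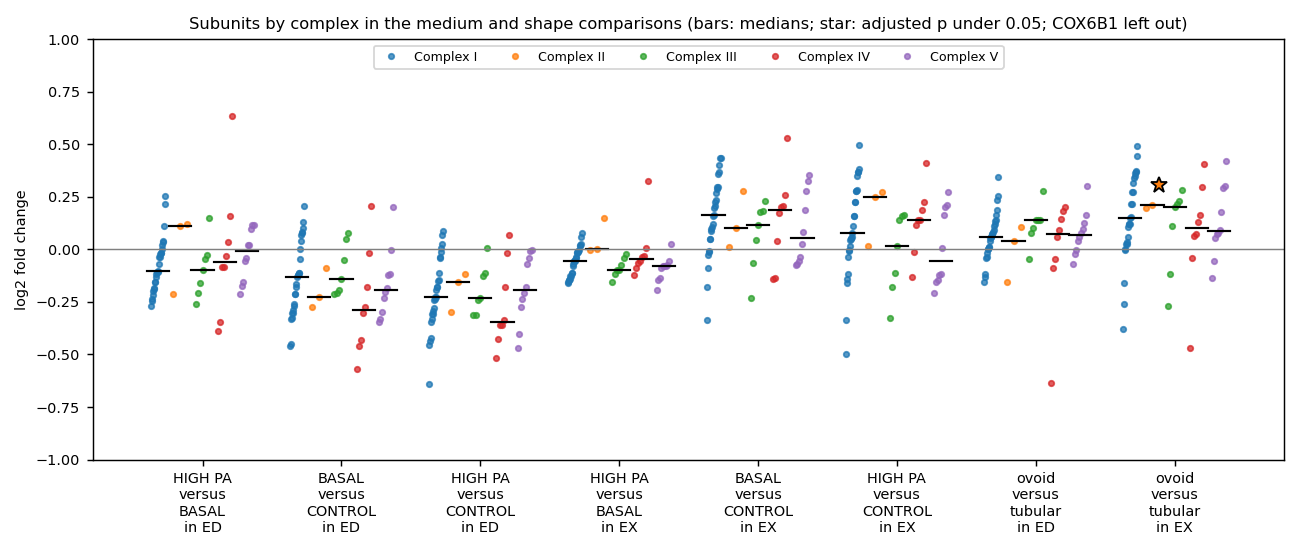
Log2 differences (vertical axis) of the subunits between media and between shapes in ED and EX (horizontal axis), with 1 point per gene coloured by complex and bars at the median of each complex; COX6B1 is left out. The star is SDHC, the 1 call. Against CONTROL the complex medians lie below 0 in the discs and mostly above it in EX, where leaving out marked libraries turns the overall medians to -0.0499 and -0.0133.

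Whether these effects differ between tissues was tested within embryos. For the HIGH PA effect in EX minus that in ED, and for the ovoid effect likewise, 0 of 58 genes and 0% of all 11921 genes were called (edgeR). The genes of lowest p were COX6B1 (-3.49 ± 1.13), COX7A2L (0.46 ± 0.26) and UQCRFS1 (-0.31 ± 0.19) for HIGH PA (SE; adjusted p = 1.0 each, edgeR). For shape they were NDUFS1 (-0.43 ± 0.22), ATP5G2 (0.29 ± 0.16) and COX8A (0.44 ± 0.25, SE; adjusted p = 0.37, 0.41 and 0.43, edgeR). COX6B1 rests on 51 reads over the 22 ED and 158 over the 27 EX libraries.

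Other genes of the pathway were read from the comparison of EX with ED, and the examples named from them were picked after their values were seen. The counts here and in the next 2 paragraphs stand beside shares over all genes of 24.5% higher and 30.8% lower. With library totals those shares were 9.81% and 43.5%. Of 11 tested protein-coding genes of mitochondrial DNA 7 rose in EX and 0 fell (median 0.55), among them COX1, the catalytic core of complex IV (0.85), and ND5 of complex I (0.60). With library totals 3 rose and 0 fell (median 0.277). Without the marked embryos 3 of 11 rose and 0 fell (median 0.173), a count near the 29.7% of all genes that were higher in that fit, where 32.2% were lower. In marked against unmarked EX libraries all 11 were higher (median 1.869, and 1.515 with library totals), where 22.4% of all genes were higher.

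Assembly factors, which build the complexes without staying in them, rose in 9 of 17 for complex I, among them NDUFAF4 (0.53), and in 11 of 18 for complex IV, among them the copper chaperones SCO2 (0.53) and COX17 (0.45), with 0 falling in either list. Those of complex II rose in 1 of 3, of complex III in 1 of 5 (BCS1L, 0.67, which inserts the Rieske protein) and of complex V in 0 of 3. These 3 counts are too small to set apart from the 24.5% of all genes that were higher. With library totals 2 of 17 of complex I rose, near the 9.81% of all genes, and 0 fell. Of complex IV 6 of 18 rose and 1 fell (CMC1). Carriers of adenine nucleotides and phosphate rose in 4 of 6, led by the outer-membrane channel VDAC2 (0.73) and the phosphate carrier SLC25A3 (0.61), and these 2 rose with library totals as well.

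Of 16 regulators of mitochondrial biogenesis and expression 9 rose and 0 fell. The coactivator PPARGC1A rose by 0.74 ± 0.26, the receptor ESRRA by 0.51 ± 0.10 and the mitochondrial elongation factor TEFM by 0.68 ± 0.11 (SE), whereas NRF1 (-0.08) and TFAM (-0.20) did not pass the test. The list had no single direction under both scalings: with library totals ESRRA and TEFM rose and PPRC1, YY1, TFAM and TFB1M fell. In the tricarboxylic acid cycle and pyruvate dehydrogenase 11 of 17 rose, among them citrate synthase CS (0.55) and IDH3A (0.57) of the NAD-dependent isocitrate dehydrogenase. IDH2, the mitochondrial NADP-dependent isocitrate dehydrogenase, was the 1 gene of that list that fell, by 2.07 ± 0.19 on the log2 scale (SE; adjusted p = 1.331e-10, edgeR). With library totals CS, IDH3A and DLD rose and IDH2, SUCLG2 and PDHX fell. Of 11 genes of coenzyme Q synthesis and mobile electron carriers 4 rose and COQ2 fell by 0.29, and with library totals 3 rose and 3 fell.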

How the data were processed

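The series measured RNA by TruSeq stranded mRNA sequencing of 53 bovine embryo libraries. The deposited table gives whole-number counts of exon and intron reads per gene and the exon length, which is a length and not a measurement. Reads were placed on UMD3.1, and DESeq2 1.10.1 is listed, per the submitters' processing notes; the aligner and counter are not given in the sources used here.

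From the deposited counts of all exon reads, genes were filtered with filterByExpr and scaled by TMM, and each comparison was fitted over all genes with the edgeR 4.0.16 quasi-likelihood test (R 4.3.3) and Benjamini-Hochberg adjustment, a gene being called at an adjusted p under 0.05. EX against ED used embryo as a block, since both tissues of a pair come from 1 embryo; medium fits had sex as a further term, and shape fits had medium and sex. The EX library of an embryo of undetermined sex stayed out of the medium, shape and mark fits. SE is the log2 difference divided by the square root of F. Levels leave out the 2 libraries under 10000 reads, and log2 ratios of levels use a pseudocount of 0.5. Depth ran from 119116 to 19533821 reads in the libraries given by level, and levels of rare genes carry the counting error of few reads. No 2 of the 53 libraries held identical values (1378 pairs checked). The fits were also run on counts simulated with known changes. Those counts held no effect of embryo, cow, kit, lane, gene length or mark, so that run cannot speak to such effects.

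Members and gene lists were chosen with earlier results of these data known. Named members are the SDH subunits, up to 3 called genes of lowest p and of largest fold per complex and direction between tissues, the called genes (up to 5 per direction) or else the 3 of lowest p in other comparisons, isoform pairs, the highest and lowest per kilobase in EX, and the genes the filter left out. All 62 symbols matched RefSeq names (ARS-UCD2.0), 50 directly and 12 as synonyms. DESeq2 1.42.0, other scalings and filters, uniquely placed reads, a gene length offset and leaving out cows or replicates were tried as alternatives. The values of 1 member are not reported here by themselves.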

Additional observations from a re-analysis of the deposited data

Results flagged for a closer look

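The groups of 4 to 10 libraries were the HIGH PA discs, HIGH PA EX and CONTROL EX. They were checked for 39 levels of complexes and named genes, 117 checks in all. In 10 checks a library lay far from the others of its group (Dixon's test at 95%), where chance gives about 1 in 20 for a single check. The checks reuse the same libraries and the sums contain the named genes, so they are not independent and 10 cannot be set against that rate. All values are TMM-scaled CPM.

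In HIGH PA discs replicate 3 was the lowest in complex III, at 959.595 where the next library stood at 1310.16, and in COX7A2, at 75.6916 against 123.378. Replicate 5 of the HIGH PA discs was the highest in COX6B1, at 27.4173 against 6.31022, and in NDUFC1, at 137.087 against 78.3611, and the lowest in NDUFV3, at 41.126 against 94.5854. That disc held 119116 exon reads, the fewest of the discs given by level. Its values rest on 4 reads of COX6B1, 20 of NDUFC1 and 6 of NDUFV3, so the part of counting error cannot be told apart. Replicate 1 of the same group held 0 reads of ATP5S, a level of 0.0 where the next was 7.38948. In HIGH PA EX replicate 3, a library with the EX_2 mark, was the highest in complex II, at 851.024 against 702.596, and replicate 9 was the highest in COX6B1, at 11.1035 against 1.3618. The latter level rests on 4 reads in a library of 340016. In CONTROL EX replicate 3 was the highest in complex III, at 1875.89 against 1721.88, and replicate 4 the lowest in NDUFC1, at 78.6454 against 98.9743.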

How the results depend on the processing

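Of the counts of called genes, 47 stayed within 1.5 times the reported count and 6 did not when a cow or replicate was left out, and 138 did and 21 did not under other alternatives. Counts that were 0 and remained 0 are among those that stayed. The comparisons of media, of shape in the discs and of effects between tissues all called 0, so the tally says little about the comparisons with calls. For EX against ED (40 called) the count was 23 with library totals, 26 in BASAL, 10 in HIGH PA, 7 in CONTROL, 20 in ovoid embryos alone (all genes: 756 higher and 1339 lower of 10431), 24 in BASAL without marked embryos (2042 and 2224 of 10118), 3 in HIGH PA without marked embryos (856 and 1493 of 10084), and 30 to 43 when leaving out 1 cow. Without the replicate block on embryos, so that the paired tissues were fitted as independent, it was 44. For shape in EX (1 called) it was 8 with library totals, 2 with DESeq2 or without libraries under 10000 reads, 0 to 27 when leaving out 1 cow, and 0 with no filter, the length offset, cow as a block, lane or mark as a term, marked libraries left out, or BASAL or HIGH PA alone. For the mark (47 called) it was 30 with library totals, 19 with the length offset, 0 in ovoid embryos and 10 to 49 when leaving out 1 cow. The share of all genes called moved as well. Without cow 13 it was 2.52% higher and 8.16% lower for the mark, and 19.5% and 17.8% for shape. For the mark it was 5.91% and 29.1% with library totals and 18.1% and 17% with the length offset. Between tissues the shares without 1 cow or without the block are not given here. In CONTROL embryos alone NDUFV1 (-0.189), COX5A (-0.041), COX4I1 (-0.111), COX8A (-0.361) and NDUFA4 (-0.070) turned to the opposite direction between tissues, and with library totals SDHA did (-0.209). Fewer embryos enter the fits of 1 medium or shape; the cause of the other changes was not tested. Rare forms such as COX7A1 and NDUFA4L2 rest on few reads, which limits their precision.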

Other observations

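The 2 undissected HIGH PA embryos held 1407380 exon reads (replicate 1, spherical) and 3138755 (replicate 2, ovoid), of which 17748 and 41076 fell on the nuclear OXPHOS genes, or 12610.7 and 13086.7 unscaled CPM. The BASAL disc library of lowest depth held 81 OXPHOS reads of 6814, and the BASAL extraembryonic library of lowest depth, from another embryo, 12 of 9810.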
